A study of Mus musculus with 18 samples.

Results

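The genes described here lie beside Clec7a, the gene of the receptor Dectin-1, on mouse chromosome 6. They were selected on position and on summed counts: the lowest start lies within 10 Mb of that of Clec7a (coordinates are of GRCm39), and the counts over 18 libraries sum to 100 or more. Genes whose names begin with Klr, Clec, Rpl, Rps or Nduf were left out, as were Ptpn6, C3ar1 and Gapdh. The rule found 174 genes of the 55416 in the table. Of 624 genes listed in the window, 60 were left out by name and 390 had under 100 counts, 270 of these with no count in any library. Just inside the minimum were Gm4482 with 100 counts and Tpi-rs11 with 106, and just outside were Gm10420 with 90 and Gm43124 with 83. In 16 members the other 12 libraries alone gave under 100 counts, so these entered with the help of the Dectin-1 knockout libraries; Gm44223, with 396 counts in the knockout and 0 elsewhere, is 1 of them.

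Sorted spleen monocytes of mice were profiled by messenger RNA sequencing on day 3, in 6 groups with 3 independent mice each per the series' design text. Wild type mice (WT, labelled C57BL/6), Dectin-1 knockout mice (Dectin-1 -/-) and FcgRIIb knockout mice (FcgRIIb-/-) had each received PBS or IVIg, a pooled immunoglobulin G preparation. FcgRIIb is the inhibitory receptor for immunoglobulin G. The age of the mice, the part of Clec7a that was deleted, the strain of the cells in which the Dectin-1 allele was made and the number of backcrosses are not given in the sources used here.

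Dectin-1 is a C-type lectin of myeloid cells that binds beta-glucans of fungal cell walls. Its gene sits inside the natural killer gene complex, a dense cluster of lectin-like receptor genes of the Klr and Clec families. An allele made by gene targeting is inherited together with the chromosome around it, so neighbours of a targeted gene can carry the sequence of the strain in which the allele was made, and each further cross to another strain shortens that stretch. Genome sequence was not analysed here. In these groups loss of Dectin-1 and a difference in linked sequence cannot be told apart.

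The libraries held 16996494 to 48958909 counts, except FcgRIIb knockout PBS replicate 2, which held 719494. In that library 3 counts are worth 4.23 CPM (counts scaled to a common library size by TMM), so a low gene at 0 there was not detectable at this depth. Dectin-1 knockout PBS replicates 2 and 3 carry the same code in their titles, as do FcgRIIb knockout PBS replicates 1 and 2, and WT IVIg replicate 3 with FcgRIIb knockout PBS replicate 3. Only the design text says that the mice are independent, and p-values measure only the spread between these samples. Monocyte markers (Lyz2, Csf1r and 8 others) summed to 24248 to 34742 CPM in the Dectin-1 knockout and 22436 to 43754 CPM in the other 12, with 0 of 10 called. T cell markers summed to 3.59 to 14.3 CPM in the knockout and 0 to 30.3 elsewhere, and natural killer cell markers to 1.75 to 9.50 and 0 to 23.8, with none of the 7 and 6 called. Neutrophil markers reached 312 and 743 CPM in Dectin-1 knockout IVIg replicates 1 and 2, against 10.7 to 46.0 in the other 4 knockout libraries and 2.41 to 72.2 in the other 12, with 0 of 5 called. All 5 had a log2 fold change above 0 in the knockout against the other 12 (median 1.97). Of the 4 plasma cell markers Jchain was called lower in the Dectin-1 knockout, at 2.25 to 13.3 CPM, against 3.79 to 89.3 in WT and 99.8 to 703 in the FcgRIIb knockout, so the gap to the other 12 lay mostly with the FcgRIIb knockout libraries.

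Clec7a itself (ENSMUSG00000079293) was checked first. The Dectin-1 knockout PBS libraries had 2.24, 2.36 and 4.05 CPM and the IVIg libraries 0.247, 0.860 and 1.55 CPM. The other 12 libraries ranged from 360 to 955 CPM, so the Clec7a counts went against no label of Dectin-1 genotype. The difference of mean log2 CPM was -8.78, with an exact two-sided permutation p of 5.39e-05, the smallest that 18564 assignments allow. Fcgr2b, the gene of FcgRIIb on chromosome 1, had 130 to 250 CPM in the FcgRIIb knockout, 208 to 317 in WT and 211 to 260 in the Dectin-1 knockout. These ranges overlap and the deleted part of the gene is not known here, so counts over the whole gene do not check the FcgRIIb label, and FcgRIIb knockout here means the libraries labelled so.

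Against the other 12 libraries, 9 of the 173 members tested passed in the Dectin-1 knockout (5.20%), where 0.141% of all 17040 genes tested did. Called means an adjusted p (Benjamini-Hochberg) under 0.05 in the quasi-likelihood test of edgeR. Emp1, Hebp1, Fam234b and Gm44223 rose, against a background of 0.0293% of all genes called higher. Eps8, Gm15987, mmu-mir-7649, Gm44511 and Gm44135 fell, against 0.112% called lower. These are bulk samples, in which fewer cells of a type and less RNA per cell cannot be told apart. At an unadjusted p under 0.05 the count was 31 of 173 (17.9%), with 3.37% of all genes, and 27 members had an absolute log2 fold change of 1 or more (15.6%), with 8.02% of all genes. The 16 members that entered with the help of the knockout libraries passed a selection that all genes did not. These shares therefore include differences built in by the count rule, as for Gm44223. The median absolute log2 fold change was 0.24 over the members and 0.13 over all genes. Among the 83 members at 10 CPM or more it was 0.09, with 0.08 over the 8656 genes of that level, so the middle of the better counted members lay close to that of all genes. Direction was mixed: 89 members lay above 0 and 84 below, with a median log2 fold change of 0.01 over the members and -0.01 over all genes.

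**Figure D1:**
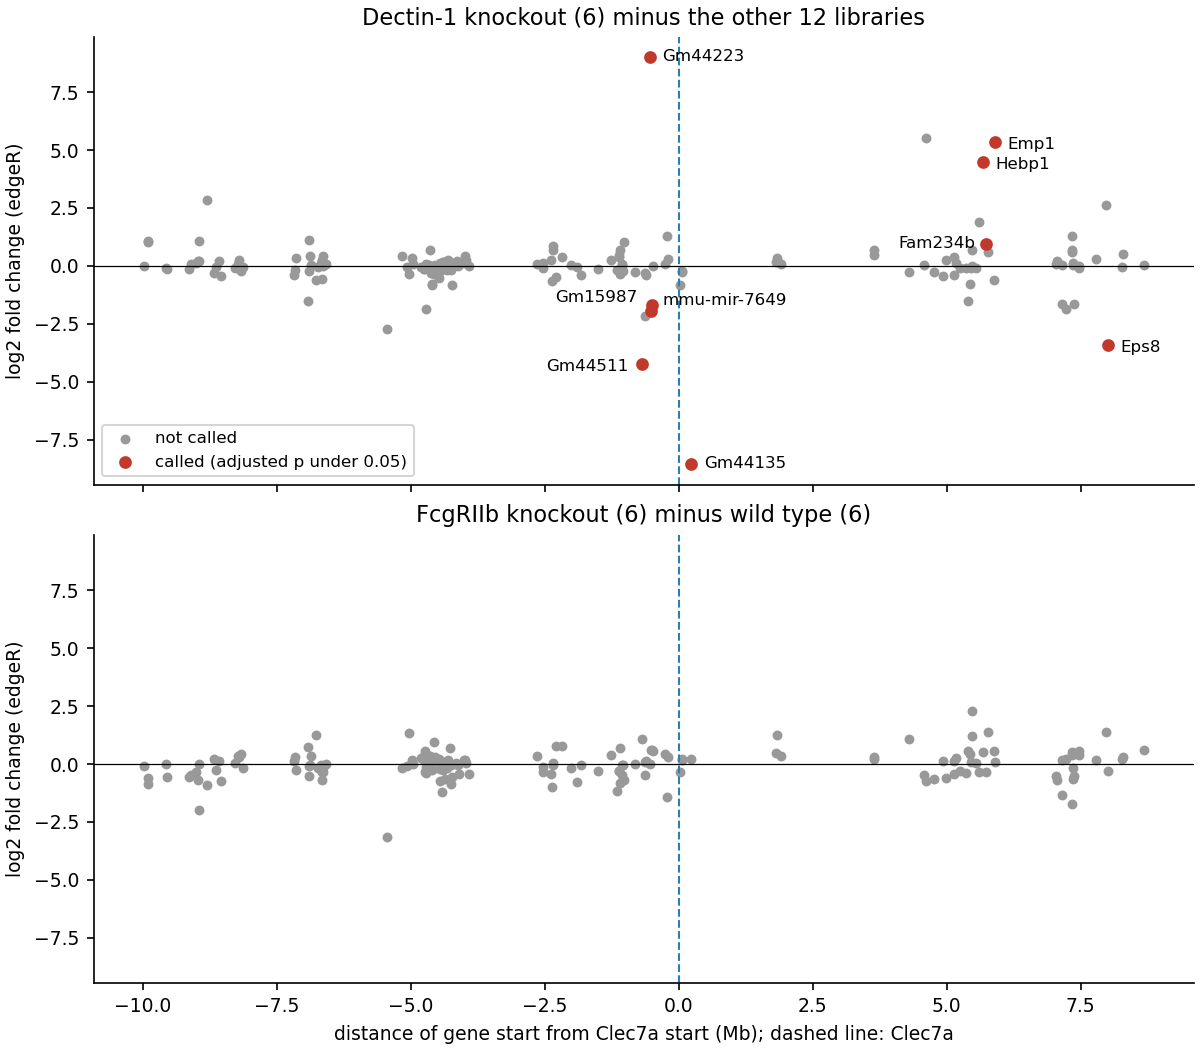
Each point is 1 of the 173 members tested, at the distance of its start from that of Clec7a (Mb, x axis) and its fitted log2 fold change (y axis). In the upper panel (Dectin-1 knockout minus the other 12 libraries) the 9 called members, in red, stand near Clec7a and at 5.68 to 8.02 Mb; in the lower panel (FcgRIIb knockout minus WT) 0 are called. Values of Gm44223 and Gm44135, which have 0 or 1 count in a group, depend on the prior count of the fit and are no bounds.

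The called members formed 2 separate stretches along the chromosome. In the inner stretch, from -0.681 to 0.235 Mb of Clec7a, 5 of 15 tested members were called. In the outer stretch, from 5.68 to 8.02 Mb, 4 of 21 were called. Of 111 tested members below the inner stretch (-9.98 to -0.817 Mb) 0 were called, with 10 at an unadjusted p under 0.05. Between the stretches, from 1.82 to 5.60 Mb, 0 of 23 were called, with 4 at an unadjusted p under 0.05, and above 8.02 Mb 0 of 3, with 1. Over all genes 0.141% were called and 3.37% had an unadjusted p under 0.05. At such a low share of calls, 0 called does not show that a stretch was unchanged. The ends of the inner and outer stretches are the called members themselves, so their shares are a description. The upper end of the inner stretch also depends on the genes left out by name. Of those, Klri1, Klri2 and Klra17 were called at 0.236, 0.267 and 0.370 Mb, and the next tested member lay at 1.82 Mb. DESeq2 called the 9 members too, and no other.

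Emp1, at 5.90 Mb (135339543 to 135360171, plus strand), codes for a small protein that spans the membrane 4 times, of the PMP22 family. It is shown with Hebp1 below because these 2 genes had the largest increases among called members with counts in every group. The promoters, from 250 bases before to 50 after the annotated start, come from RefSeq on GRCm38.p6. This build is older than that of the counts, so their positions do not match the gene positions given here. For Hebp1 the annotated start differs too. In the counted annotation the 5′ end of Hebp1 overlaps Fam234b. In RefSeq the Hebp1 window ends at 135168465, and the first Fam234b window begins only at 135197737. The Hebp1 window shown is thus not that of the 5′ end of the counted gene. Capitals mark each match, on either strand, of 4 motifs. They are the TATA box, searched as TATAAA, the box of the letters CCAAT, the GC box, searched as GGGCGG, and the core of the site of PU.1, a myeloid transcription factor, searched as GAGGAA.
Hebp1, chr6:135168166-135168465, minus strand: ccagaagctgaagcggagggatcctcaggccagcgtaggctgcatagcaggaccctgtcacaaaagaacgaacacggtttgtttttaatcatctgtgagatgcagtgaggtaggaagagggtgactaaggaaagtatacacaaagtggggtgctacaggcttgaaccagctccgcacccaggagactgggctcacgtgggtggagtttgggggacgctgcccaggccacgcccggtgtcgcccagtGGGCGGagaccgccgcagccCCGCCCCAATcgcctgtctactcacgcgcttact
Emp1, chr6:135362681-135362980, plus strand: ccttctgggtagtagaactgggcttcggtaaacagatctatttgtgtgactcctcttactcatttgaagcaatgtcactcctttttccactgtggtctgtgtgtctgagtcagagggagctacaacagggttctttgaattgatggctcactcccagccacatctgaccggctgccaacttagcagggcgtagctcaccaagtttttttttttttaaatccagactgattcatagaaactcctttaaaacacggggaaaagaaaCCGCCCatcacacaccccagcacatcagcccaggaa

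The Hebp1 window holds 2 GGGCGG matches and 1 CCAAT match, and the second GGGCGG match shares 1 base with it. The Emp1 window holds 1 GGGCGG match. Neither holds the TATA box or the PU.1 core. Of 32851 promoters of this length, 35.7% hold the GC box, 37.4% the CCAAT box, 13.6% the TATA box and 28.3% the PU.1 core. The windows differ in composition, with 59.3% G and C and 17 CpG sites for Hebp1 and 46.7% and 5 sites for Emp1, around medians of 52.7% and 7 sites. Promoter entries were found for 99 of 174 members and 4 of the 9 called. Emp1 has a second entry, with none of the 4 motifs.

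Emp1 had 527, 370 and 338 CPM in the Dectin-1 knockout PBS libraries and 422, 421 and 357 CPM in the knockout IVIg libraries. The other 12 ranged from 2.48 to 25.8 CPM with a median of 9.85. All 6 knockout libraries stood far above the highest of the others, and WT PBS replicates 1 and 2, at 24.5 and 25.8 CPM, were the highest of those. The mean was 406 ± 68.5 CPM (SD, n = 6) against 11.0 ± 7.56 (n = 12), a log2 fold change of 5.33 ± 0.30 (SE, 40.2-fold) with an adjusted p of 4.59e-10 in edgeR. Per kilobase of exon, Emp1 went from a mean of 1.86 to 68.4 CPM per kilobase.

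Hebp1 codes for a heme-binding protein of the cytosol, an N-terminal fragment of which is a chemoattractant acting through a formyl peptide receptor. It lies at 5.68 Mb (135114520 to 135175020, minus strand). The knockout PBS libraries had 71.7, 75.3 and 96.6 CPM and the knockout IVIg libraries 110, 64.1 and 71.5 CPM, while the other 12 ranged from 0 to 5.86 with a median of 3.45. The groups did not overlap, and the 0 is the shallow library. The means were 81.5 ± 17.8 CPM (SD, n = 6) and 3.40 ± 1.72 (n = 12), a log2 fold change of 4.47 ± 0.21 (SE, 22.1-fold; edgeR adjusted p 1.52e-11).

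Fam234b, which starts at 5.74 Mb on the opposite strand, overlaps the 5′ end of Hebp1. Their exons share 46 bases, and those of Fam234b share 293 with Gsg1, and the counting gave a read pair to each gene it overlapped. Its knockout PBS libraries had 25.0, 27.6 and 21.9 CPM and its knockout IVIg libraries 40.6, 28.1 and 33.4 CPM, against 0 to 23.0 elsewhere with a median of 15.5. The groups overlapped, since WT IVIg replicate 2 at 23.0 CPM lay above Dectin-1 knockout PBS replicate 3. The log2 fold change was 0.94 ± 0.18 (SE; edgeR adjusted p 0.0335), and the call was lost in 15 of 25 alternative settings, where the adjusted p reached 0.684 with the WT libraries alone as reference.

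Eps8, at 8.02 Mb (137454243 to 137631874, minus strand), is the outermost called member on that side. Its product caps and bundles actin filaments and is a substrate of the epidermal growth factor receptor. The knockout PBS libraries had 9.23, 5.73 and 3.42 CPM and the knockout IVIg libraries 4.88, 3.35 and 8.25 CPM, and the other 12 ranged from 33.9 to 77.4 with a median of 69.0. No knockout library reached the lowest of the others, which is the shallow library; without it the lowest was 47.7 CPM. The mean fell to 9.09% of that of the other 12, from 64.0 ± 13.8 CPM (SD, n = 12) to 5.81 ± 2.46 (n = 6), a log2 fold change of -3.44 ± 0.21 (SE; edgeR adjusted p 5.33e-09).

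Hebp1, Emp1 and Eps8 kept their calls in all 25 alternative settings. The log2 fold changes with 1 library left out ran from 4.34 to 4.58 for Hebp1, from 5.20 to 5.43 for Emp1 and from -3.70 to -3.29 for Eps8. In the 4 knockout libraries whose neutrophil markers summed to 46.0 CPM or less, Emp1 was 338 to 527 CPM and Hebp1 71.5 to 96.6 CPM, against 421 to 422 CPM and 64.1 to 110 CPM in the 2 others. The part of neutrophils in these values was not tested.

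**Figure D2:**
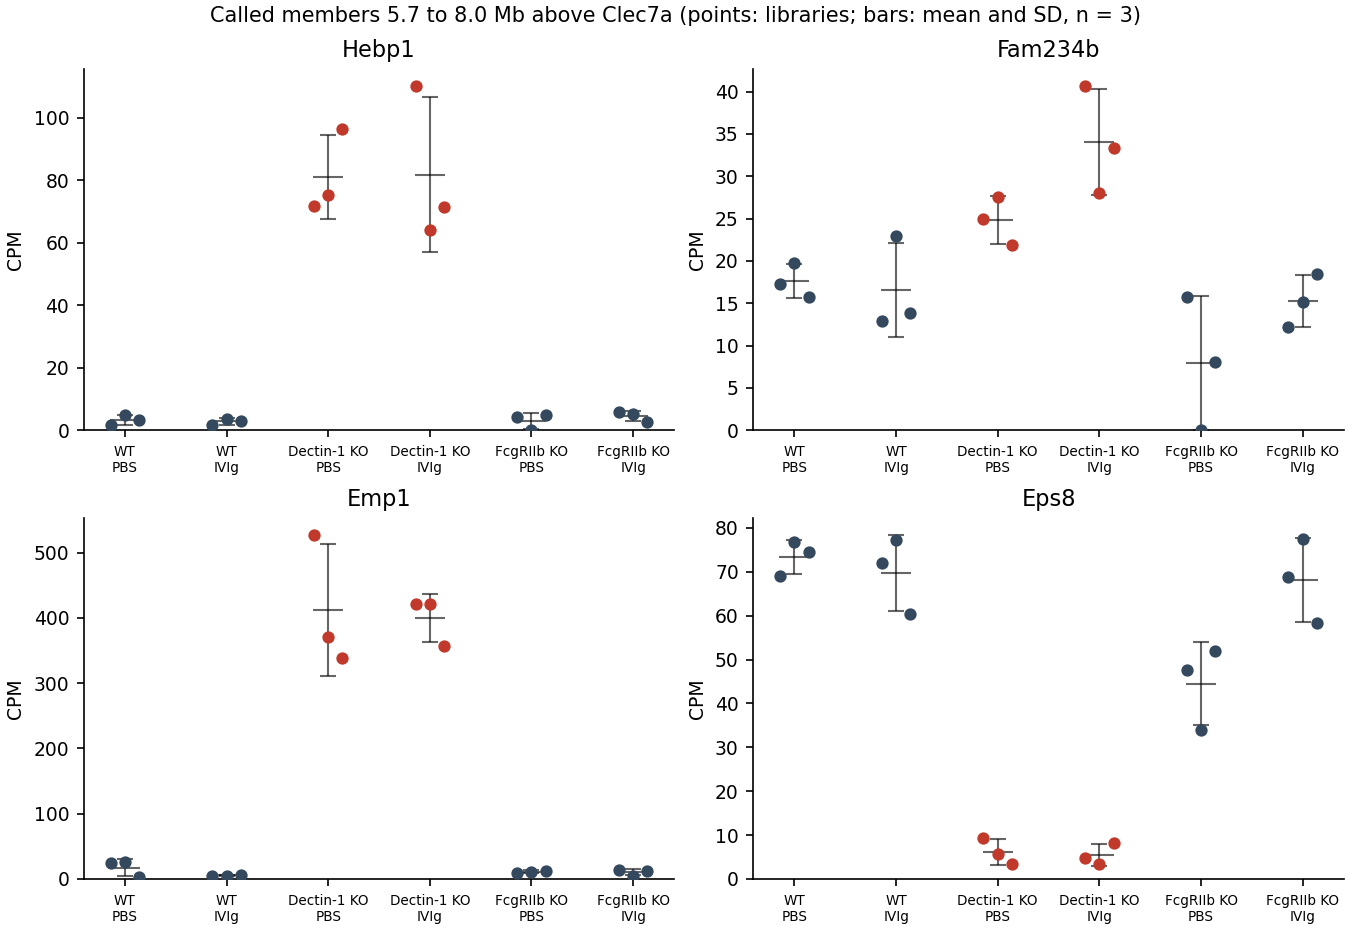
CPM (y axis, linear, from 0) of Hebp1, Fam234b, Emp1 and Eps8 in each library by group; bars are mean and SD of 3 libraries, and the Dectin-1 knockout is red. Hebp1 and Emp1 lie at 64.1 CPM or more and 338 CPM or more in all 6 knockout libraries, Eps8 at 9.23 or less, and Fam234b overlaps between groups.

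The inner stretch held 5 called members, none a well described protein-coding gene. All 7 T cell markers had a log2 fold change below 0 (median -0.96, 0 called), as 4 of these 5 members did, and of the 6 natural killer cell markers 4 lay below 0 and 2 above (median -0.30, 0 called). T cell marker sums in WT were 9.12, 10.1 and 12.9 CPM with PBS and 5.76, 10.2 and 4.17 CPM with IVIg. In the Dectin-1 knockout they were 14.3 CPM in IVIg replicate 2 and 3.59 to 6.20 CPM in the other libraries. The FcgRIIb knockout had 16.1 to 30.3 CPM. Natural killer cell marker sums were 2.73 to 6.11 CPM in WT and 8.04 to 23.8 in the FcgRIIb knockout. Both FcgRIIb knockout ranges leave out the shallow library, at 0. Both sums thus reached their highest values in the FcgRIIb knockout. T cell marker sums were also lower in most Dectin-1 knockout libraries than in most WT libraries. The part of such cells in the result was not tested. Gm44223, at -0.542 Mb (128896830 to 128896943, plus strand), is a short gene model. It had 17, 105 and 40 counts in the Dectin-1 knockout PBS libraries and 31, 106 and 97 in the knockout IVIg libraries, and no count in any of the other 12. Per count sequenced it was at least 269-fold higher in the knockout, with 3 counts over the group of 12 as the floor (edgeR adjusted p 0.00463). Because the rule needed 100 summed counts, this gene entered only through the knockout libraries and had to differ.

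Gm44135, at 0.235 Mb (129673081 to 129673448, minus strand), is the reverse case. It had 1 count over the 6 knockout libraries, in IVIg replicate 3, and 1105 counts over the other 12, where 11 libraries had 0.464 to 5.18 CPM and the shallow library had 0. The other 12 were 543-fold higher per count sequenced, with an exact 95% interval of 97.2 to 21450 that covers counting error only (edgeR adjusted p 0.00864). Without FcgRIIb knockout PBS replicate 3 the adjusted p was 0.0538.

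Gm15987, at -0.510 Mb (128928167 to 128951992, minus strand), is the most abundant of the 5. It had 12.2, 13.3 and 15.1 CPM in the knockout PBS libraries, 21.3, 15.0 and 12.5 CPM in the knockout IVIg libraries, and 31.8 to 195 CPM elsewhere with a median of 49.7. The groups did not overlap, and the 195 is the shallow library. The mean was 14.9 ± 3.35 CPM (SD, n = 6) against 64.2 ± 44.6 (n = 12), a log2 fold change of -1.94 ± 0.25 (SE; edgeR adjusted p 0.000642). The gene model mmu-mir-7649 (128951803 to 128951858, same strand) lies wholly within an exon of Gm15987, over 56 bases, so its read pairs are also those of Gm15987. It had 2.79 to 4.68 CPM in the 6 knockout libraries and 4.23 to 23.9 elsewhere, with only the shallow library under 7.31, a log2 fold change of -1.70 ± 0.24 (SE; edgeR adjusted p 0.00140). These are messenger RNA libraries, so the counts are of longer transcripts over the hairpin and not of mature miRNA. The mature sequences in RefSeq (GRCm38.p6) are shown to identify that hairpin, with the seed, bases 2 to 8, in capitals; 1 other mature miRNA of 1738 has the seed of the 3p arm and 0 that of the 5p arm.
mmu-miR-7649-3p: uCUCUCCAgcacugcuuguuucu
mmu-miR-7649-5p: uGACAGCAgugcuguagacaug

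Gm44511, at -0.681 Mb (128757248 to 128803278, minus strand), is the called member farthest below Clec7a. All 1012 of its exonic bases are shared, 599 with Klrb1b and 413 with Klrb1c, so its reads cannot be assigned among them; Klrb1b, left out by the rule, fell as well (0.0213 against 2.28 CPM, edgeR adjusted p 9.13e-05). It had 16 counts in the 6 knockout libraries and 595 in the other 12, that is 0 to 0.256 CPM against 0 to 3.99. The log2 fold change was -4.26 ± 0.70 (SE; edgeR adjusted p 0.00518). It was -6.68 without Dectin-1 knockout IVIg replicate 2 and -6.20 without Dectin-1 knockout PBS replicate 2, the only knockout libraries with a count, and fitted values so near 0 counts are no bounds. The adjusted p was 0.0738 in the legacy fit and 0.0953 with the WT libraries alone as reference.

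**Figure D3:**
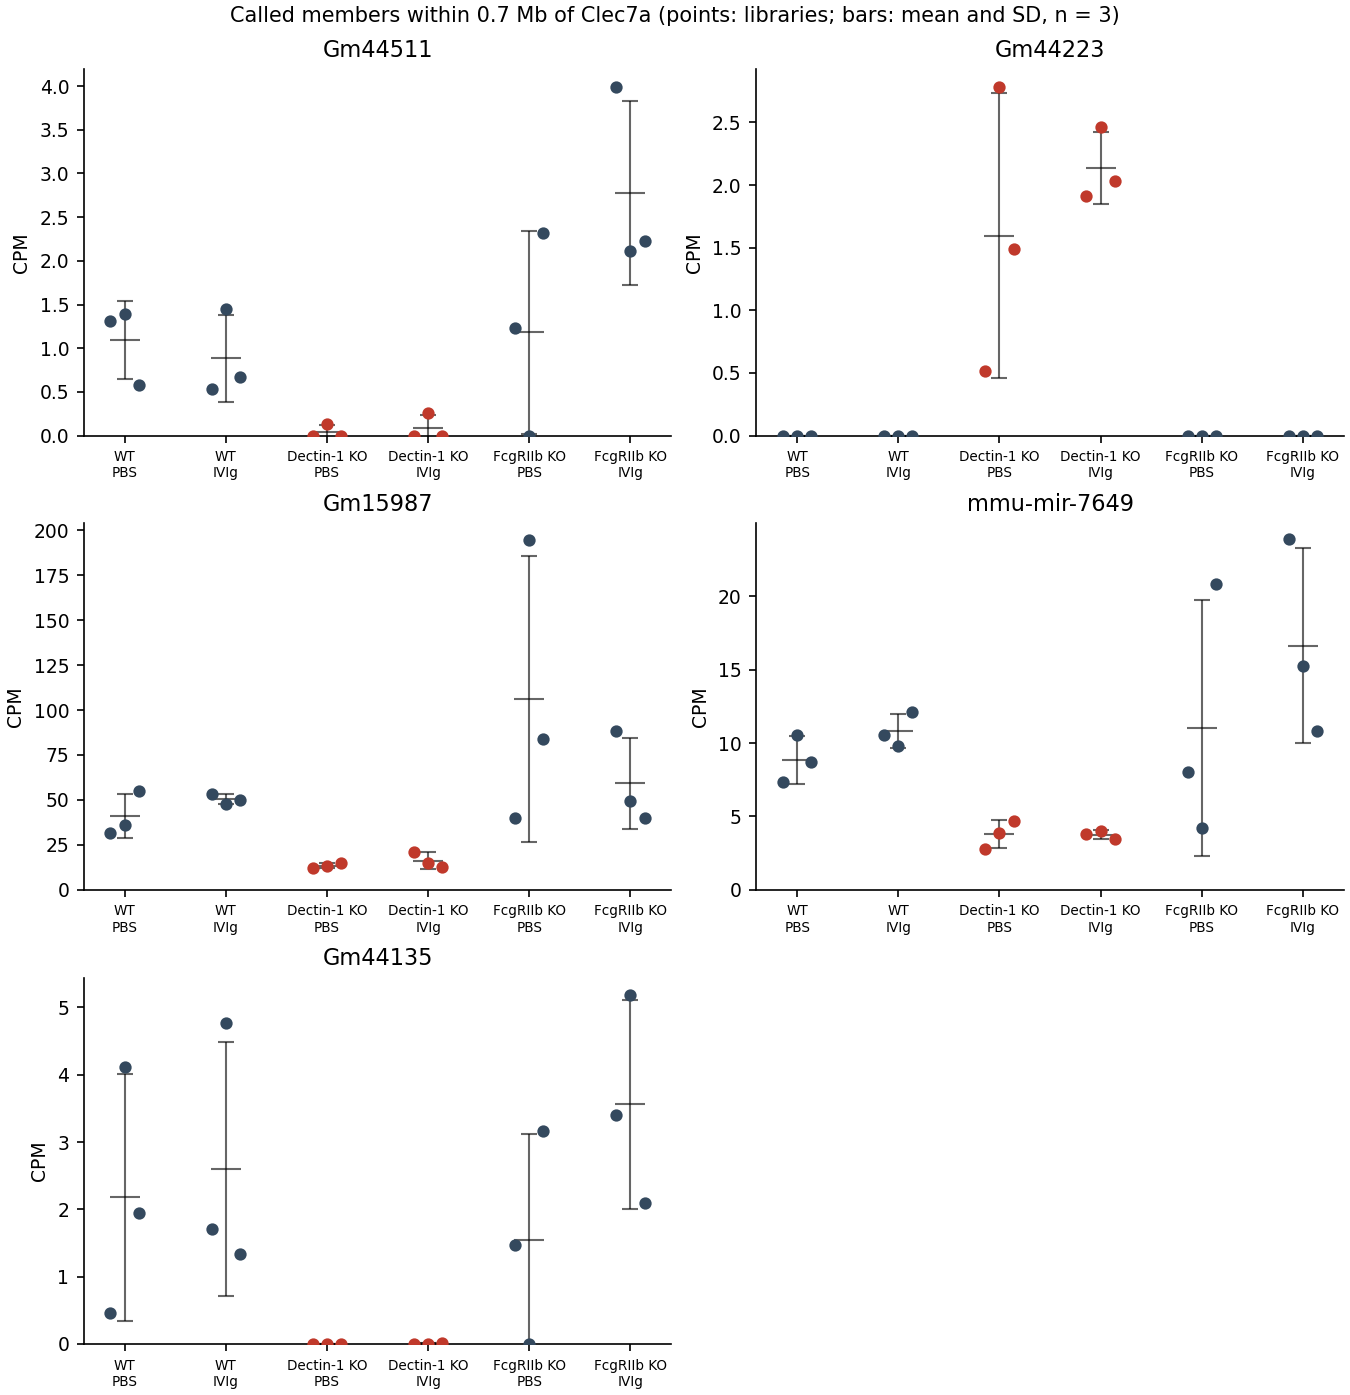
CPM (y axis, linear, from 0) of the 5 called members within 0.7 Mb of Clec7a, in each library by group; bars are mean and SD of 3 libraries, and the Dectin-1 knockout is red. Gm44223 has counts in the knockout only, the 4 others lie lower there, and the highest point of Gm15987, 195 CPM, is the shallow FcgRIIb knockout library.

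Ranges in the knockout and the other 12 did not overlap for 5 members (Gm44223, Gm15987, Hebp1, Emp1 and Eps8), against 0.0646% of all genes. Without the shallow library they did not overlap for 8, against 0.112% of all genes, with Gm44511, mmu-mir-7649 and Gm44135 added. Gm44223 entered only through the knockout libraries, so the count rule favoured its place in both counts. Of the 9 called members, Fam234b alone overlapped in both counts.

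None of the 3 members nearest to Clec7a on each side was called. Olr1, the lectin-like receptor for oxidised low density lipoprotein, begins at 0.0237 Mb and had 1.55 to 6.18 CPM in the knockout and 4.86 to 26.8 elsewhere (log2 fold change -0.85 ± 0.27 SE, adjusted p 0.840 in edgeR). Cd69, an early activation antigen, lies on the other side at -0.194 Mb and had 4.53 to 11.3 CPM against 2.82 to 8.80 (0.30 ± 0.19 SE). Gabarapl1, which acts in autophagosome formation, had 29.0 ± 5.51 CPM (SD, n = 6) against 33.2 ± 6.32 (n = 12). For 2310001H17Rik, 1700101I11Rik and Gm47861, the other close neighbours, log2 fold changes were 0.09 ± 0.16, -0.29 ± 0.19 and 1.28 ± 0.74 (SE). These are nearest among members only. Genes left out by name also lie here, of which Clec9a, Klrd1 and Klrk1, at -0.0527, 0.130 and 0.149 Mb, were called lower.

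The 5 most abundant members were not called either. Plbd1, a phospholipase B-like protein of lysosomes and granules, had 1206 ± 103 CPM (SD, n = 6) in the knockout and 1192 ± 155 (n = 12) elsewhere. Arhgdib had 950 ± 165 against 1021 ± 232 CPM, with 136 exonic bases shared with Pde6h. Il17ra, the interleukin-17 receptor subunit, had 797 ± 57.7 against 737 ± 182 CPM. Ptpro, a receptor tyrosine phosphatase that begins at 7.79 Mb, next to Eps8, had 479 ± 45.1 against 398 ± 72.3 CPM, and M6pr, a sorting receptor for lysosomal enzymes, 381 ± 33.5 against 444 ± 146 CPM. Each of these ranges overlapped.

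Counts by role are a description, since only 0.141% of all genes were called and a short list would mostly hold none. Of 18 surface receptors and antigens Emp1 rose and 17 were not called. Gpr19, an orphan receptor, had 0.797 ± 0.463 against 2.14 ± 1.27 CPM (log2 fold change -1.52 ± 0.37 SE, adjusted p 0.254 in edgeR), and Gprc5a had 0.474 against 0.136 CPM. Of 11 actin, GTPase and kinase signalling members Eps8 fell and 10 were not called, among them Erc1 with 3.33 ± 1.08 against 1.76 ± 1.11 CPM. Of 25 tested members for metabolism, organelles and apoptosis Hebp1 rose and 24 were not called. There Dera, an enzyme of deoxyribose phosphate breakdown at 8.29 Mb, had 51.8 ± 9.55 against 33.8 ± 13.6 CPM, and Atp6v1e1, a subunit of the vacuolar proton pump, 118 ± 16.9 against 147 ± 26.6 CPM.

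None of 22 transcription, chromatin and RNA members was called (0.141% of all genes), with 3 at an unadjusted p under 0.05 (3.37% of all genes). Apobec1, a cytidine deaminase that edits RNA, had 224 ± 22.0 CPM (SD, n = 6) in the knockout and 173 ± 39.3 (n = 12) elsewhere, and H2aj, a histone variant, 154 ± 59.0 against 97.8 ± 43.4. None of 8 cell cycle and DNA repair members was called, with 1 at an unadjusted p under 0.05, Ccnd2, cyclin D2, at 11.6 ± 2.35 against 6.94 ± 4.10 CPM. Of 3 complement and plasma or matrix members, C1rl had 10.1 ± 2.54 against 7.51 ± 4.10 CPM, and none had an unadjusted p under 0.05. Of the 86 members in no role list 2 rose and 4 fell, and 51 of these 86 are gene models without a proper symbol, with 1 higher and 3 lower. DESeq2 gave the same 9 members, so it called 0 in these 3 groups too.

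The Dectin-1 knockout was then compared with each genotype within each treatment. Against WT, 3 members were called with PBS (0.0411% of all genes) and 3 with IVIg (0.0528% of all genes), each time Hebp1, Emp1 and Eps8. DESeq2 called 5 in each, with Gm44223 and Gm44135 added. Against the FcgRIIb knockout these 3 and Gm15987 were called with PBS, 4 in all (background 0.088%). With IVIg the same 3 were joined by Gm44511 and mmu-mir-7649, 5 in all (background 0.117%). Emp1 had log2 fold changes of 4.55 ± 0.52 and 6.20 ± 0.58 against WT with PBS and IVIg, and 5.27 ± 0.61 and 5.30 ± 0.55 against the FcgRIIb knockout (SE). For Hebp1 the same 4 values were 4.61 ± 0.37, 4.85 ± 0.38, 4.22 ± 0.43 and 4.20 ± 0.37. For Eps8 they were -3.57 ± 0.31, -3.64 ± 0.32, -2.95 ± 0.32 and -3.60 ± 0.32. Comparisons within a treatment share the knockout libraries.

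The PBS and IVIg comparisons with WT share no library. The count rule summed the knockout libraries, so members that entered through them are high in both by selection. Of the 158 members with 100 counts in the other 12 libraries alone, 89 (56.3%) had the same sign in both, with a Spearman correlation of 0.33 and a Pearson r of 0.70. Without the called ones these values were 81 of 150 (54.0%), 0.23 and 0.30, and over all genes 49.4%, 0.03 and 0.11. Of the 83 members at 10 CPM or more 53.0% shared a sign, with 46.5% of all genes at that level. The Spearman correlations there were 0.32 and -0.07, called members included. Against the FcgRIIb knockout the shares at 10 CPM or more were 68.7% of members and 63.9% of all genes, with Spearman correlations of 0.44 and 0.37. These are correlations across genes that share libraries and a fit, given as a description. The shares of members lay near those of all genes, while the Spearman correlations against WT were higher in members.

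**Figure D4:**
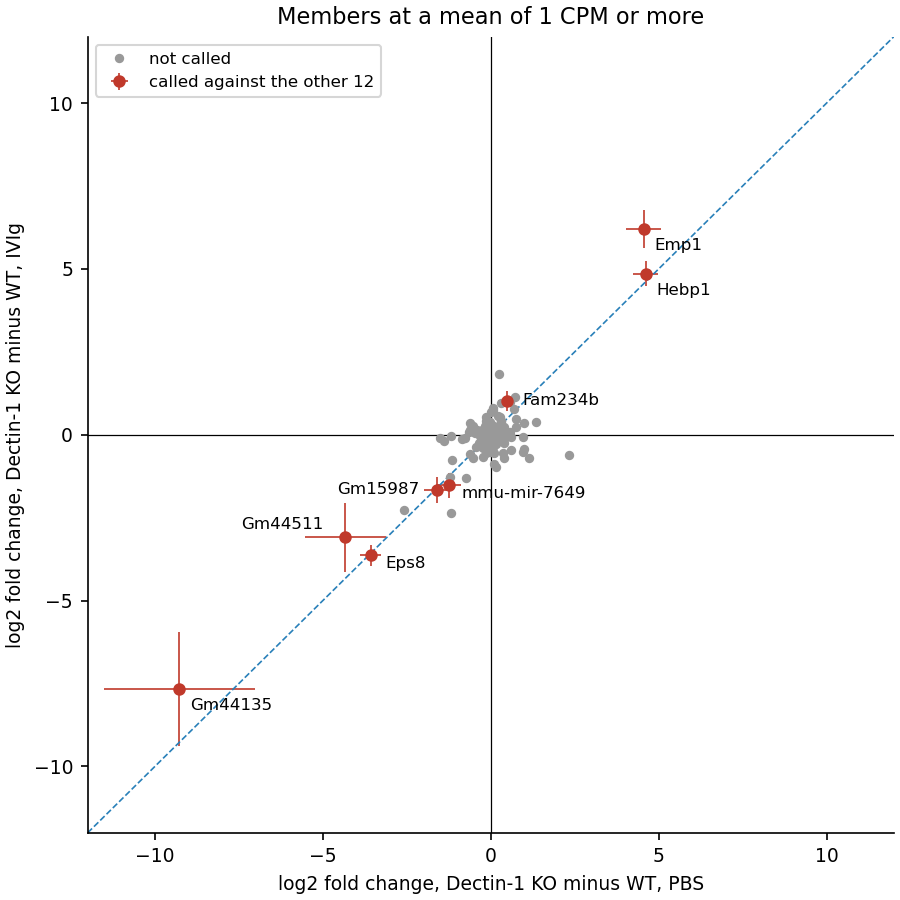
Log2 fold change of the Dectin-1 knockout against WT with PBS (x axis) and with IVIg (y axis) for the 129 members at a mean of 1 CPM or more; red points, with SE bars, are the 8 called against the other 12 libraries, and the dashed line marks equal values. Emp1 and Hebp1 lie high on both axes, and Eps8, Gm44135 and Gm44511 low on both. Gm15987 and mmu-mir-7649 lie less far below 0 on both, while most other members lie near 0.

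Members were also compared between the genotypes in which Clec7a was expressed. Between the FcgRIIb knockout and WT 0 of 173 were called (background 0.088%) by edgeR and 0 by DESeq2, and 16 had an unadjusted p under 0.05 (9.25%), with 12.3% of all genes. The 16 became 39 without FcgRIIb knockout PBS replicate 1 and 25 without WT PBS replicate 1. It became 2 without FcgRIIb knockout PBS replicate 3, 3 without FcgRIIb knockout IVIg replicate 1, 7 without WT PBS replicate 3 and 8 without WT IVIg replicate 1, while the count called stayed 0. There Emp1 had a log2 fold change of 0.09 ± 0.38, Hebp1 of 0.52 ± 0.30 and Eps8 of -0.32 ± 0.20 (SE). In this comparison Gm44511 had 1.10 ± 0.43, Gm15987 0.61 ± 0.27 and mmu-mir-7649 0.62 ± 0.25, none called.

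IVIg against PBS over the 3 genotypes called 0 members in edgeR, as in 0% of all genes, and 0 in DESeq2, with 5 members at an unadjusted p under 0.05 (2.89%) and 2.31% of all genes. The 5 became 2 without FcgRIIb knockout PBS replicate 3 or WT PBS replicate 1, and 3 without FcgRIIb knockout IVIg replicate 2 or WT IVIg replicate 2. It became 8 without WT IVIg replicate 1 or 3, 11 without WT PBS replicate 2 and 12 without FcgRIIb knockout PBS replicate 1. The difference of the treatment response between the Dectin-1 knockout and the other genotypes also called 0 members in edgeR (0% of all genes) and 0 in DESeq2, with 10 at an unadjusted p under 0.05 (5.78%) and 4.06% of all genes. The log2 fold change of IVIg over PBS was -0.60 ± 0.30 for Emp1, -0.07 ± 0.23 for Hebp1 and 0.10 ± 0.17 for Eps8 (SE). The interaction of Emp1 was 0.84 ± 0.59 (SE), and its WT PBS libraries at 24.5, 25.8 and 2.48 CPM spread more widely than its WT IVIg libraries at 5.22, 4.40 and 6.65 CPM.

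Calls outside the members in the comparison with the other 12 libraries were few. Of 41 tested genes left out by name in the window 9 were called: Clec7a, Clec9a and 7 Klr genes, of which Klra17 rose (41.5 against 3.67 CPM). On chromosome 6 at 10 to 20 Mb from Clec7a 0 of 143 were called, and in the rest of chromosome 6 the 3 of 722 called were the immunoglobulin kappa segments Igkv1-110, Igkc and Igkj2. On all other chromosomes 3 of 16093 were called (0.0186%): mt-Tl1, Dpp4 and Jchain. Thus 18 of the 24 genes called lay within 10 Mb of the start of Clec7a.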

How the data were processed

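The authors deposited raw read-pair counts per gene. Reads were aligned with STAR to GRCm39, per the submitters' processing notes. Per the file headers, featureCounts 2.0.2 counted pairs on Ensembl release 104, primary alignments only, each pair for every gene it overlaps and without a strand setting, so genes that overlap on either strand are counted together; 84 members share exonic bases with another gene. A further 18 columns fit no sample here and stayed unused. The 1492 genes without a symbol hold 0.125% to 0.450% of a library and were kept.

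Genes passing filterByExpr (17040) entered 1 edgeR 4.0.16 model (R 4.3.3; TMM scaling, non-legacy quasi-likelihood F-test) of 6 groups with 12 residual degrees of freedom, with Benjamini-Hochberg adjustment over all genes tested. The SE of a log2 fold change was derived from the test, as its absolute value divided by the square root of the F statistic. Log2 CPM used a prior count of 2. Replicates of a group differed beyond sampling noise (chi-square 30.6 to 367 per degree of freedom). Replicate numbers follow accession order. DESeq2 1.42.0, other filters, scaling, windows and count minimums, other references and each of the 18 libraries left out were alternatives.

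Members and lists were chosen with earlier results of these data known. Named are Clec7a, Hebp1, Emp1 and Eps8, all called members, the 3 nearest on each side, the 5 most abundant, and up to 4 per role list; gene models only where called and at 1 or more in absolute log2 fold change, or nearest. Genes outside the members are named where a result turns on them. Slc25a18 (108 counts) was the 1 member not tested. Figures were drawn with matplotlib 3.10.9 in Python 3.11.15.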

Additional observations from a re-analysis of the deposited data

How the results depend on the processing

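The count of called members against the other 12 libraries, 9, ran from 7 to 9 with 1 library left out. It was 5 in a window of 5 Mb, which leaves out the outer stretch by construction, and 4 without members that share exonic bases with another gene, an alternative chosen after seeing the data. It was within 1.5 times of 9 in the other 28 alternatives. The count whose groups do not overlap went from 5 to 8 without the shallow library, also added after seeing the data. DESeq2 called 5 members against WT with PBS and 5 with IVIg, where edgeR called 3 each, and the cause was not tested; with 1 library left out both counts were 3 throughout. The Clec7a difference ran from -9.07 to -8.32 with 1 library left out. Counts for FcgRIIb knockout against WT, IVIg against PBS and the interaction were 0 in each of 23 alternatives. Fam234b lost its call in 15 of 25 alternatives, Gm44511 in 2 and Gm44135 in 1; Hebp1, Emp1, Eps8, Gm15987, mmu-mir-7649 and Gm44223 in 0. The PBS and IVIg comparison over members with 100 counts in the other 12 libraries alone was chosen after seeing the data. Low members at 0 in FcgRIIb knockout PBS replicate 2 are limited by its depth. No paired analysis was possible because the replicate numbers follow accession order and pair no libraries.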
